A study of Mus musculus with 18 samples.

Results

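The genes described here are 39 interferon response and antigen processing genes. They were chosen by symbol for their known roles, but with earlier results of these data known. Of these members, 37 had at least 1 probe set that the platform annotation assigns to a single gene symbol, out of 18193 such genes on the array, and together they had 63 probe sets. Isg15 and Ifi44 had no such probe set and were not analysed here. After a filter on low signal, which kept probe sets above the median signal of their array on at least 3 of the 18 arrays, 29 members and 46 of the probe sets remained for testing, among 11569 tested genes.

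All 6 groups came from double transgenic K5tTA x pTRE-H2B-GFP mice (FvB and CD1 parents), in which the keratin 5 promoter drives a histone-GFP label that doxycycline represses. The mice received doxycycline at 1 g per kg of food from postnatal day (PD) 18 to PD21 or from PD22 to PD25, and each division without new synthesis dilutes the label. Skin cells were sorted by surface CD34 and α6-integrin into non-bulge cells and bulge cells, the niche of hair follicle stem cells, and bulge cells were divided by retained GFP into those with 0 divisions (here undivided) and those with 1 to 2 divisions (here divided). The 18 arrays came from 6 mice: at each age 3 mice gave 1 array of every fraction. The label reports only cells in which the keratin 5 promoter was active before the chase, the labels give no division count for non-bulge cells, and every mouse received doxycycline.

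Type I interferons signal through a receptor made of Ifnar1 and Ifnar2, and interferon gamma through a receptor that contains Ifngr1. The type I receptor activates a complex that contains Stat2 and Irf9 and binds ISRE sequences, while interferon gamma acts through GAS sequences and induces Irf1. Targets include antiviral effectors and the machinery that loads peptides on MHC class I: the immunoproteasome subunits Psmb8, Psmb9 and Psmb10, the Tap1 and Tap2 peptide transporter, the chaperone tapasin (Tapbp) and the light chain B2m. The bulge is known as a site of relative immune privilege in the hair follicle, with low display of MHC class I.

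Values are given as log2(signal + 16), with differences in log2 units ± the standard error of a limma fit over all 18 arrays, and a gene passed at a Benjamini-Hochberg adjusted p of 0.05 over the 11569 genes. The 18 arrays had equal trimmed means, with medians of 60.3 to 116.6. They fell into 2 sets of 9 arrays that differed in the signal of the bioB hybridisation control (554.2 to 886.1 in set A, 2123.5 to 3173.3 in set B). Each mouse lay within 1 set: PD21 mice 1 and 2 and PD25 mouse 1 in set A, and the other mice in set B. No source used here says what separates the sets. Counts within a set stand beside the pooled counts where the set leaves 2 mice per group. At PD25 set A leaves 1, and at PD21 set B leaves 1. The keratinocyte markers Krt5, Krt14, Krt15, Itga6, Itgb4 and Trp63 were present in every group, with a summed signal of 71603 to 189651. The bulge markers Cd34, Lhx2, Sox9, Lgr5, Nfatc1, Tcf7l1 and Dkk3 summed to 27090 to 36851 in undivided cells of both ages and to 1845 to 3167 in non-bulge cells. In divided cells they summed to 23595 to 35297 at PD25 and to 4155 to 7718 at PD21.

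On average over the tested members, undivided bulge cells had the lowest levels at both ages. The mean over the 29 tested members, each centred on its own mean over the 18 arrays, at PD21 was 0.37 for non-bulge, -0.40 for undivided bulge and 0.40 for divided bulge cells. At PD25 the same means were 0.37, -0.57 and -0.17. By array, undivided cells lay at -0.82 to -0.21 and non-bulge cells at 0.15 to 0.62, without overlap. Divided cells lay at 0.40 to 0.41 in the PD21 mice, among the non-bulge values, and at -0.20 to -0.15 in the PD25 mice, between the undivided and the non-bulge values of their age. Usp18, Gbp2 and Ifit1 exceeded the array median on no undivided array of either age. They passed the filter only through the other groups, so their low undivided values enter these means by selection. In sorted bulk fractions, fewer cells that express a gene and less RNA per cell cannot be told apart.

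**Figure D1:**
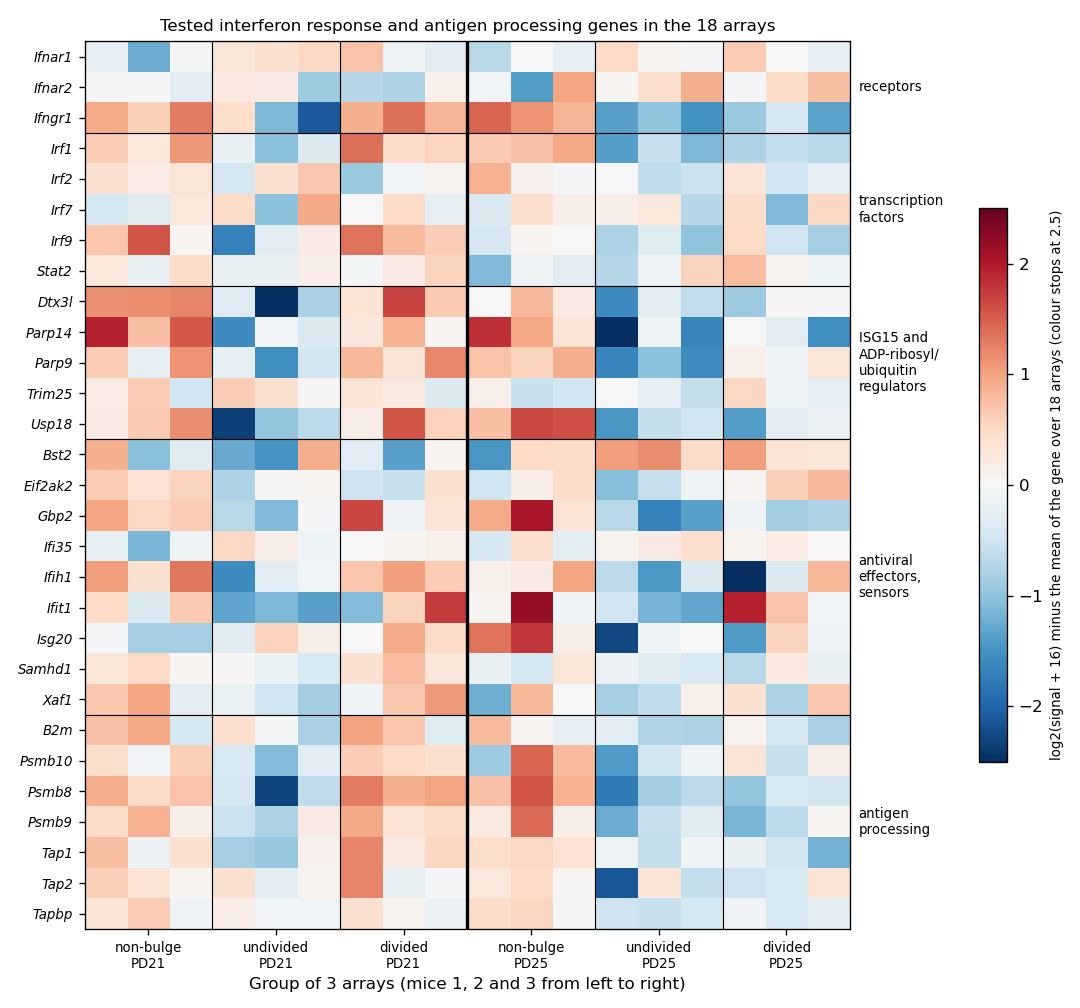
Each row is 1 of the 29 tested members, grouped by role, and each column 1 of the 18 arrays; colour gives log2(signal + 16) minus the gene's mean over 18 arrays. Undivided bulge columns are mostly blue at both ages, for example in Psmb8, Ifngr1 and Irf1, while divided bulge columns of these genes are red at PD21 and blue at PD25.

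At PD21, 6 of the 29 tested members (20.7%) were lower in the undivided bulge fraction than among non-bulge cells, against 4.93% of all tested genes, and 0 were higher, against 6.12%. They were Dtx3l, Ifngr1, Irf1, Parp14, Psmb8 and Usp18. The median difference over the 29 was -0.86, against -0.05 over all tested genes, and in 13 of them every undivided array lay below every non-bulge array (13.3% of all tested genes). At PD25, 9 of 29 (31%) were lower and 0 higher, against 4.83% and 5.71% of all tested genes: the same genes except Dtx3l, with Gbp2, Parp9, Psmb9 and Tapbp in addition. The median there was -0.84, against -0.02, and 15 members did not overlap downward (11.7% of all tested genes). Usp18, in both counts, and Gbp2, in the PD25 count, exceeded the array median on no undivided array. They passed the filter only through groups in which they were high. Within array set A, 5 members were lower at PD21, against 3.77% of all tested genes, and 1, Ifi35, was higher, against 5.12%. Of the 5 lower ones, Dtx3l and Psmb8 were among the 6 of the pooled fit. Within set B 7 were lower at PD25, against 3.39% of all tested genes, and 6 of them were among the pooled 9. Set A at PD25 and set B at PD21 left 1 array per group, so no calls are counted there. Leaving out non-bulge mouse 3 lowered the PD21 count from 6 to 3, and leaving out non-bulge mouse 2 or undivided mouse 1 lowered the PD25 count from 9 to 5. The 6 that also passed within set B at PD25 were Gbp2, Ifngr1, Irf1, Parp9, Psmb8 and Usp18.

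Divided bulge cells stood apart from undivided cells at PD21: 7 of the 29 tested members (24.1%) were higher in divided cells and 0 lower, against 3.91% and 4.37% of all tested genes. The 7 were Dtx3l, Ifngr1, Irf1, Parp9, Psmb8, Tap1 and Usp18, of which Usp18 passed the filter only through groups in which it was high. The median difference was 0.96, against 0.07 over all tested genes, and 15 members did not overlap upward (13.0% of all tested genes). The undivided arrays enter both this comparison and that with non-bulge cells, so both rest on the same low values. The count was 3 within set A, of which only Psmb8 was among the 7, against 3.16% of all tested genes. It was 3 without undivided mouse 2 and 4 without divided mouse 1. Set B left 1 array per group, with differences of 0.43 to 1.65 for the 7 other than Ifngr1. Against non-bulge cells of PD21, 0 of 29 divided members passed in limma's test, where 0.182% of all tested genes passed. Before adjustment, 2 members and 487 of the 11569 tested genes had a limma p under 0.05. The median difference was 0.09.

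At PD25 the order was different. In divided cells 5 of 29 members (17.2%) were lower than in non-bulge cells, against 3.25% of all tested genes: Ifngr1, Irf1, Psmb8, Psmb9 and Usp18. Here too Usp18 passed the filter only through groups in which it was high. The median was -0.47, against -0.02 over all tested genes, and 10 members did not overlap downward (10.1% of all tested genes). The count of lower members was 8 with the mouse as a block, against 4.76% of all tested genes, and 4 within set B, against 2.05%. It was 3 without non-bulge mouse 2, divided mouse 1 or divided mouse 2. Set A left 1 array per group, with differences of -2.38 to -1.39 for the 5. Between divided and undivided cells of PD25, 0 members and 0% of all tested genes passed in limma's test. Before adjustment, 3 members and 635 of the 11569 tested genes had a limma p under 0.05. The median difference was 0.33, and 4 members (Eif2ak2, Ifit1, Parp9 and Tapbp) had every divided array above every undivided array, against 6.19% of all tested genes.

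**Figure D2:**
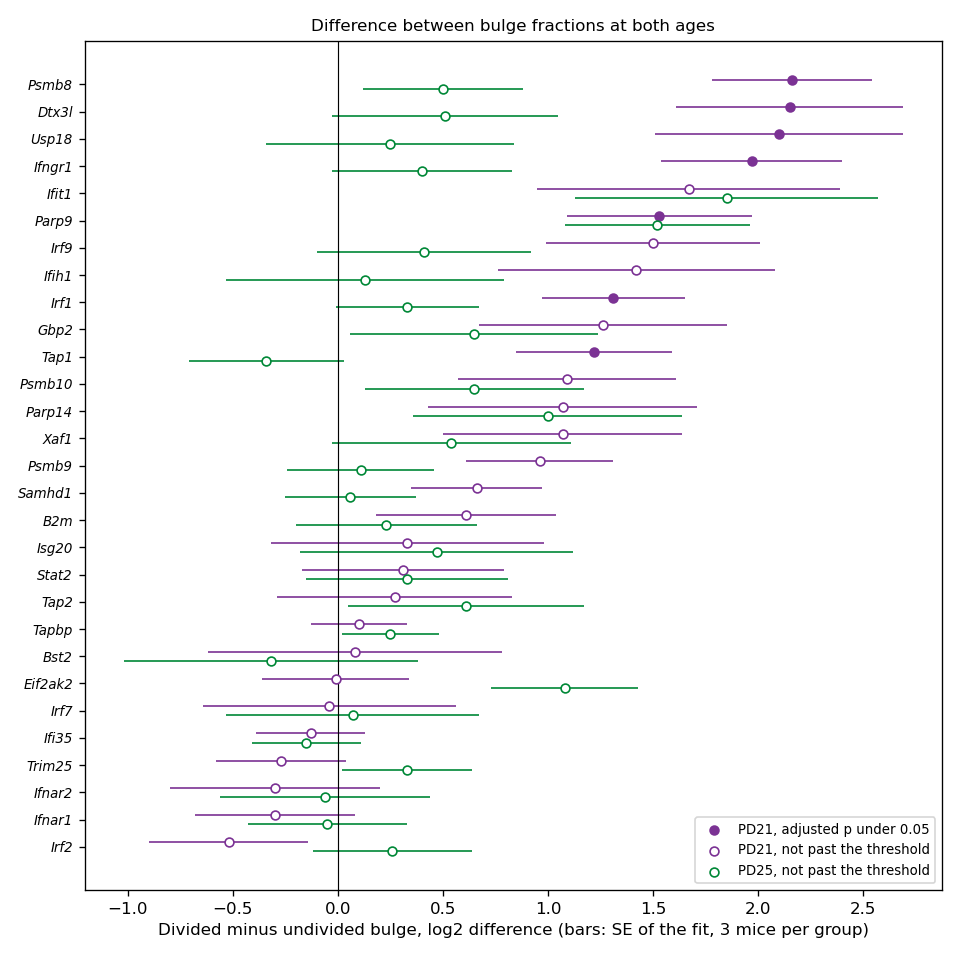
Points give the log2 difference of divided minus undivided bulge cells for the 29 tested members at PD21 (purple) and PD25 (green), with the SE of the fit as bars and filled points for members that passed. Psmb8 lies at 2.16 at PD21 and 0.50 at PD25, whereas Parp9 lies at 1.53 and 1.52.

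The promoter windows were searched for both interferon motifs. RefSeq promoter windows (GRCm38.p6, 250 bases before to 50 after each gene's start) were given for 33 members, and not for Mx1, Mx2, Parp14, Parp9, Tap2 and Usp18. The ISRE core, GAAA repeated after any 2 bases and searched on both strands, was in the windows of 12 of the 33 members and of 3.99% of all genes with a window. The GAS core TTCNNNGAA, which reads alike on both strands, was in those of 11 members and of 9.55% of all genes. Of the 11 members that passed a test 8 had a window, and among these Gbp2 alone held the ISRE letters, and Irf1 and Psmb8 held the GAS letters. A match describes letters in this window and is no evidence of binding. The windows below were picked after the values were seen, apart from Gbp2: those of Gbp2, Irf1 and Psmb8 hold the matches, Tap1 holds neither, and Ifit1, which passed in no comparison, holds the ISRE letters in 2 places. Irf1 had 2 windows, of which only the 1 shown holds a GAS match. Capitals mark the matches.
Gbp2, chr3:142620413-142620712, plus strand: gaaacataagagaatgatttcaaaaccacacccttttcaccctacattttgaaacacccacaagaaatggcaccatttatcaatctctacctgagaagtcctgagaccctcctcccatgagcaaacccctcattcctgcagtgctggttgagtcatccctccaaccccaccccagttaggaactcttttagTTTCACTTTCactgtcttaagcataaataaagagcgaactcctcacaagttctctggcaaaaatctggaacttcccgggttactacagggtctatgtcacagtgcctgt
Irf1, chr11:53769764-53770063, plus strand: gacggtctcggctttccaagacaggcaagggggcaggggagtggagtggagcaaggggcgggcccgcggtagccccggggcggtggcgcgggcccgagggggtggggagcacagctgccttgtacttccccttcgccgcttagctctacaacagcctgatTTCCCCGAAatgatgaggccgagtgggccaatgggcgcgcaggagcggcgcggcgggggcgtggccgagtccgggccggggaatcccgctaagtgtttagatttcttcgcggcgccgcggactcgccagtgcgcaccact
Psmb8, chr17:34197945-34198244, plus strand: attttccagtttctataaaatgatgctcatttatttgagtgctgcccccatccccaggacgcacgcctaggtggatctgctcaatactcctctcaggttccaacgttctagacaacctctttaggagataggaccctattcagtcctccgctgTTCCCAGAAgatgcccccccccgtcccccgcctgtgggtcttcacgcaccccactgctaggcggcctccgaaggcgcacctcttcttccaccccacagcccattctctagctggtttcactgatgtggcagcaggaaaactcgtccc
Tap1, chr17:34187306-34187605, plus strand: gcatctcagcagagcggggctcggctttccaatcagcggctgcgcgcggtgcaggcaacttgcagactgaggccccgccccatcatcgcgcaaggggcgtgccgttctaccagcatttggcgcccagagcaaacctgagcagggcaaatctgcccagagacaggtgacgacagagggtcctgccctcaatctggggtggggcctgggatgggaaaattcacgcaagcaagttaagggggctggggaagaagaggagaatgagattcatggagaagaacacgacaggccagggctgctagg
Ifit1, chr19:34640639-34640938, plus strand: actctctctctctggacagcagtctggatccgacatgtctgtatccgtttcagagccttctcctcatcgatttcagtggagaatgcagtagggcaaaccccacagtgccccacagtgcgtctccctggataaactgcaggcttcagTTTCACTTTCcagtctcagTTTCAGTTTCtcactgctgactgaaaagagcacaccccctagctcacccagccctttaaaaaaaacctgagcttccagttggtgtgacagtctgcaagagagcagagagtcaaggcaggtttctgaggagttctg
The Tap1 window shares 275 bases with that of Psmb9, which is read from the minus strand, so the start sites of these genes of peptide supply face away from each other. Psmb9, Tap1, Psmb8 and Tap2 are adjacent among the protein-coding genes of chromosome 17, and Parp14, Dtx3l and Parp9 are adjacent on chromosome 16.

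Of the 3 receptor chains, only Ifngr1, the ligand-binding chain for interferon gamma, passed in any comparison. Its levels in mice 1 to 3 at PD21 were 10.41, 10.09 and 10.77 in non-bulge cells, 9.93, 8.37 and 7.38 in undivided cells, and 10.37, 10.86 and 10.34 in the divided bulge fraction. At PD25 they were 10.94, 10.60 and 10.33 in non-bulge, 8.12, 8.49 and 7.98 in undivided cells, and 8.56, 9.07 and 8.15 in the divided fraction. Every undivided array was below every non-bulge array of its age, and the divided arrays changed sides, with the non-bulge values at PD21 and near the undivided values at PD25. Ifngr1 was lower in undivided than non-bulge cells, with differences of -1.87 ± 0.43 at PD21 (3.66-fold, limma adjusted p = 0.00396) and -2.43 ± 0.43 at PD25 (5.37-fold, limma adjusted p = 0.000292). Divided cells of PD21 exceeded undivided ones by 1.97 ± 0.43 (3.91-fold, limma adjusted p = 0.0035). Divided cells of PD25 lay below non-bulge cells, with a difference of -2.03 ± 0.43 (limma adjusted p = 0.00246). All these differences had 1 direction in 3 of 3 mice and none lost its call when any 1 array was left out. Both PD21 differences depended on undivided mice 1 and 3: without mouse 1 they were -2.56 and 2.65, and without mouse 3 -1.28 and 1.38. Within array set A, which held 2 mice per group at PD21, neither of them passed. There they were -1.11 (limma adjusted p = 0.166) and 1.47 (limma adjusted p = 0.0699). The PD25 calls of both bulge fractions against non-bulge cells held within set B.

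The type I receptor chains passed in no comparison. Ifnar1 levels at PD21 were 8.64, 7.62 and 8.83 in non-bulge, 9.15, 9.24 and 9.37 in undivided cells, and 9.56, 8.73 and 8.57 in the divided fraction. At PD25 they were 8.15, 8.86 and 8.63, then 9.35, 8.91 and 8.81, then 9.48, 8.84 and 8.60 in the same order of fractions. The undivided arrays lay above the non-bulge arrays at PD21 without overlap, yet the difference of 0.89 ± 0.38 did not pass (limma adjusted p = 0.158). A second, dimmer Ifnar1 probe set had the opposite sign, at -0.49 ± 0.64 at PD21 and -0.62 ± 0.64 at PD25. Ifnar2 differed between undivided and non-bulge cells by -0.06 ± 0.50 at PD21 and 0.61 ± 0.50 at PD25, within the error of the fit at PD21 and just above it at PD25.

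Irf1, a transcription factor that interferon gamma induces, followed the pattern of Ifngr1, and 1 of its 2 promoter windows holds the GAS letters. At PD21 it stood at 9.67, 9.33 and 10.15 in non-bulge, 8.88, 8.04 and 8.71 in undivided cells, and 10.44, 9.52 and 9.59 in the divided fraction. At PD25 it stood at 9.71, 9.79 and 10.03 in non-bulge, 7.69, 8.49 and 7.94 in undivided cells, and 8.29, 8.45 and 8.36 in the divided fraction. No undivided array reached a non-bulge array of its age, and the divided arrays of PD25 were all below the divided arrays of PD21. The difference of undivided from non-bulge cells was -1.17 ± 0.34 at PD21 (limma adjusted p = 0.0268) and -1.80 ± 0.34 at PD25 (limma adjusted p = 0.000721). Divided cells exceeded undivided ones at PD21 by 1.31 ± 0.34 (2.48-fold, limma adjusted p = 0.0164), and at PD25 they differed from non-bulge cells by -1.48 ± 0.34 (limma adjusted p = 0.00593). Of the PD21 calls, that against non-bulge cells was lost without non-bulge mouse 1 or 3 or undivided mouse 2 (-1.37 to -0.92 over all left-out arrays, adjusted p up to 0.139). That against undivided cells was lost without undivided mouse 2 or divided mouse 1 (1.02 to 1.48, adjusted p up to 0.131).

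The other 4 interferon-linked transcription factors passed in no comparison. Irf9, the DNA-binding part of the type I complex, stood at 8.86, 9.74 and 8.21 in non-bulge, 6.47, 7.91 and 8.37 in undivided cells, and 9.52, 8.95 and 8.78 in the divided fraction of PD21. All divided arrays lay above all undivided ones, and the difference was 1.50 ± 0.51 (limma adjusted p = 0.0716, or 0.0467 with the mouse as a block). At PD25 Irf9 stood at 7.74, 8.22 and 8.16, then 7.37, 7.87 and 7.16, then 8.66, 7.66 and 7.31, and the fractions overlapped. Stat2, the partner of Irf9, overlapped between all fractions of PD21, with 7.66, 7.22 and 7.86 in non-bulge, 7.21, 7.22 and 7.57 in undivided cells, and 7.35, 7.61 and 7.96 in the divided fraction. At PD25 it read 6.30, 7.28 and 7.13, then 6.69, 7.29 and 7.97, then 8.17, 7.49 and 7.29. Irf7, the amplifier of type I interferon production, was dim, above the array median on 4 of 18 arrays. It read 5.60, 5.74 and 6.31, then 6.52, 5.02 and 6.98, then 6.05, 6.54 and 5.80 at PD21, with all fractions overlapping. Its PD25 values were 5.68, 6.46 and 6.19, then 6.19, 6.31 and 5.32, then 6.50, 4.94 and 6.56, also overlapping. The fourth, Irf2, a factor that can oppose Irf1, ranged from 7.93 to 9.74 over the 18 arrays.

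Usp18, the protease that removes ISG15 and damps type I receptor signalling, was dim. It exceeded the array median on 8 of 18 arrays, all of them non-bulge arrays or divided arrays of PD21, so it passed the filter only through the groups in which it was high. At PD21 it read 6.64, 7.10 and 7.61 in non-bulge, 4.11, 5.45 and 5.77 in undivided cells, and 6.61, 7.99 and 7.02 in the divided fraction. The PD25 values were 7.20, 8.08 and 8.04, then 4.98, 5.84 and 5.94, then 5.04, 6.18 and 6.29 in the same order. Undivided cells were the low group at PD21, while undivided and divided cells were both low at PD25. Undivided cells averaged 5.11 against 7.12 in non-bulge cells at PD21 (limma adjusted p = 0.0267) and 5.59 against 7.78 at PD25 (limma adjusted p = 0.0146), with the low means near the floor of 4.0 that the added constant sets. Divided cells exceeded undivided ones at PD21 by 2.10 ± 0.59 (limma adjusted p = 0.0255) and were below non-bulge cells at PD25 (-1.94 ± 0.59, limma adjusted p = 0.0388). Each of these 4 calls was lost on leaving out any of 2 to 5 single arrays, and with no filter those of undivided against non-bulge cells at PD21 and of divided against non-bulge cells at PD25 were lost as well (limma adjusted p = 0.0509 and 0.0726). For PD21 against non-bulge these were non-bulge mice 2 and 3 and undivided mouse 1 (-2.33 to -1.50), and for divided against undivided they were undivided mouse 1 and divided mouse 2 (1.60 to 2.43). For PD25 they were non-bulge mice 2 and 3 and undivided mouse 1 against undivided cells (-2.48 to -1.89), and non-bulge mice 2 and 3 or any divided mouse against divided cells (-2.23 to -1.54).

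Dtx3l and Parp9 form a ubiquitin ligase complex, and Parp14 is an ADP-ribosyltransferase encoded beside them. Dtx3l at PD21 stood at 9.30, 9.31 and 9.37 in non-bulge, 7.83, 5.51 and 7.35 in undivided cells, and 8.49, 9.85 and 8.81 in the divided fraction. At PD25 it stood at 8.14, 8.96 and 8.36, then 6.59, 7.88 and 7.54, then 7.25, 8.19 and 8.10. Undivided mouse 2 of PD21 was the lowest of the 18 arrays, and at PD25 undivided and divided cells overlapped. Undivided differed from non-bulge cells at PD21 by -2.43 ± 0.54 (5.38-fold lower, limma adjusted p = 0.00295), a call that no left-out array ended (-2.90 to -1.74, the smallest without undivided mouse 2). Divided exceeded undivided cells at PD21 by 2.15 ± 0.54 (limma adjusted p = 0.0109), a call lost without undivided mouse 2 or divided mouse 2 (1.46 to 2.62, adjusted p up to 0.0946). Its second probe set gave differences of the same sign, -1.56 and 0.63.

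Parp9 at PD21 read 8.87, 8.01 and 9.35 in non-bulge, 7.98, 6.70 and 7.78 in undivided cells, and 9.05, 8.55 and 9.43 in the divided fraction. In the PD25 mice it was 8.95, 8.78 and 9.14, then 6.60, 7.21 and 6.68, then 8.36, 8.15 and 8.54. In both ages all divided arrays lay above all undivided arrays. Divided exceeded undivided cells by 1.53 ± 0.44 at PD21 (limma adjusted p = 0.03) and by 1.52 ± 0.44 at PD25, where it did not pass (limma adjusted p = 0.436). The PD21 call was lost without undivided mouse 2 or divided mouse 1 or 3 (1.13 to 1.77, adjusted p up to 0.161). Undivided differed from non-bulge cells by -2.13 ± 0.44 at PD25 (limma adjusted p = 0.00153) and by -1.26 ± 0.44 at PD21 (limma adjusted p = 0.0692, or 0.0188 with the mouse as a block).

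Parp14 at PD21 stood at 9.50, 8.32 and 9.11 in non-bulge, 6.00, 7.50 and 7.22 in undivided cells, and 7.86, 8.44 and 7.62 in the divided fraction. At PD25 it stood at 9.40, 8.54 and 7.90, then 4.56, 7.44 and 5.95, then 7.59, 7.31 and 6.04. Undivided arrays were below non-bulge arrays at both ages, and spread most at PD25. The difference was -2.07 ± 0.64 at PD21 (limma adjusted p = 0.0376) and -2.63 ± 0.64 at PD25 (limma adjusted p = 0.0072). The first was lost without non-bulge mouse 1 or 3 or undivided mouse 1 or 3 (-2.40 to -1.62), and the second without non-bulge mouse 1 or undivided mouse 1 (-3.36 to -1.92). The second Parp14 probe set gave -2.45 and -1.12, and it passed for divided minus undivided cells of PD21 at 2.56 (limma adjusted p = 0.00941), where the probe set used gave 1.07. Trim25, a ubiquitin ligase of the RIG-I pathway, ranged from 12.35 to 13.58 and passed in no comparison.

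**Figure D3:**
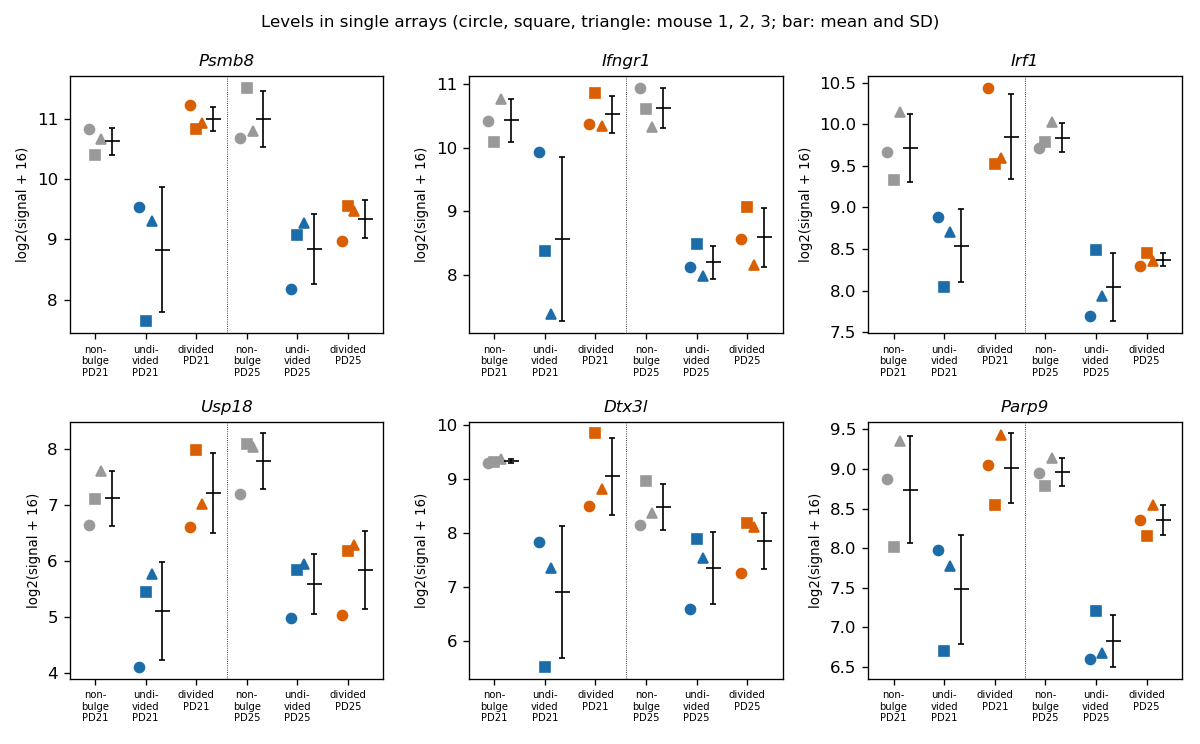
Each panel plots log2(signal + 16) of 1 gene in the 18 arrays by group, with circles, squares and triangles for mice 1, 2 and 3 of an age and the bar for the mean and SD of 3 mice. Divided cells (orange) lie with non-bulge cells (grey) at PD21 and, in Psmb8, Ifngr1 and Irf1, near undivided cells (blue) at PD25, while Parp9 in divided cells of PD25 stays at 8.15 to 8.54.

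Antigen processing genes are the next role. All 7 tested members had negative differences between undivided and non-bulge cells at PD21 (median -0.86) and at PD25 (median -1.07), and all 7 had positive differences between divided and undivided cells at PD21 (median 0.96). Of the 7, 1 passed in the first comparison, 3 in the second and 2 in the third. Psmb8, the immunoproteasome subunit that replaces Psmb5, stood at 10.84, 10.41 and 10.66 in non-bulge, 9.54, 7.64 and 9.31 in undivided cells, and 11.23, 10.83 and 10.93 in the divided fraction of PD21. At PD25 it stood at 10.68, 11.52 and 10.80, then 8.18, 9.07 and 9.28, then 8.98, 9.55 and 9.48. Undivided arrays never reached the non-bulge range, and all divided arrays of PD25 were below all those of PD21. Psmb8 was below non-bulge cells by 3.49-fold in undivided cells of PD21 (-1.80 ± 0.38, limma adjusted p = 0.00205) and by 4.47-fold at PD25 (-2.16 ± 0.38, limma adjusted p = 0.000315). Divided cells of PD21 exceeded undivided ones 4.48-fold (2.16 ± 0.38, limma adjusted p = 0.000538), and at PD25 they were below non-bulge cells 3.17-fold (-1.66 ± 0.38, limma adjusted p = 0.00536). No single left-out array ended any of these calls, and without undivided mouse 2 the PD21 differences were -1.21 for undivided minus non-bulge and 1.57 for divided minus undivided cells. A second, dimmer Psmb8 probe set gave the same signs with smaller sizes, -0.73, -0.36, 0.48 and -0.75.

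Psmb9, the counterpart of Psmb6, read 11.41, 11.82 and 11.10 in non-bulge, 10.43, 10.16 and 11.16 in undivided cells, and 11.91, 11.29 and 11.42 in the divided fraction of PD21. At PD25 it read 11.19, 12.37 and 11.12, then 9.72, 10.39 and 10.65, then 9.81, 10.28 and 11.01. Both bulge fractions lay below all non-bulge arrays at PD25, whereas undivided mouse 3 of PD21 lay within the non-bulge range. At PD25 undivided cells differed from non-bulge cells by -1.31 ± 0.35 (limma adjusted p = 0.015) and divided cells by -1.20 ± 0.35 (limma adjusted p = 0.0323). The first call was lost without non-bulge mouse 2 or undivided mouse 1 (-1.53 to -0.90), and the second without non-bulge mouse 2 or divided mouse 1 or 2 (-1.52 to -0.79). At PD21 divided minus undivided was 0.96 ± 0.35 (limma adjusted p = 0.103, or 0.0459 with the mouse as a block). Psmb10, the counterpart of Psmb7, passed in no comparison and differed by -0.90 ± 0.52, -1.12 ± 0.52 and 1.09 ± 0.52 in undivided against non-bulge cells at PD21 and PD25 and in divided against undivided cells at PD21.

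The constitutive proteasome gave other values. All 14 subunits of that list were tested and 0 passed in any comparison, with medians between -0.18 and 0.25 in the 9 comparisons within a fraction or within an age and between -0.28 and -0.07 for the 3 differences between the ages. In divided against undivided cells of PD21, Psmb5, Psmb6 and Psmb7, the catalytic subunits, differed by -0.14 ± 0.31, 0.08 ± 0.23 and 0.03 ± 0.21.

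**Figure D4:**
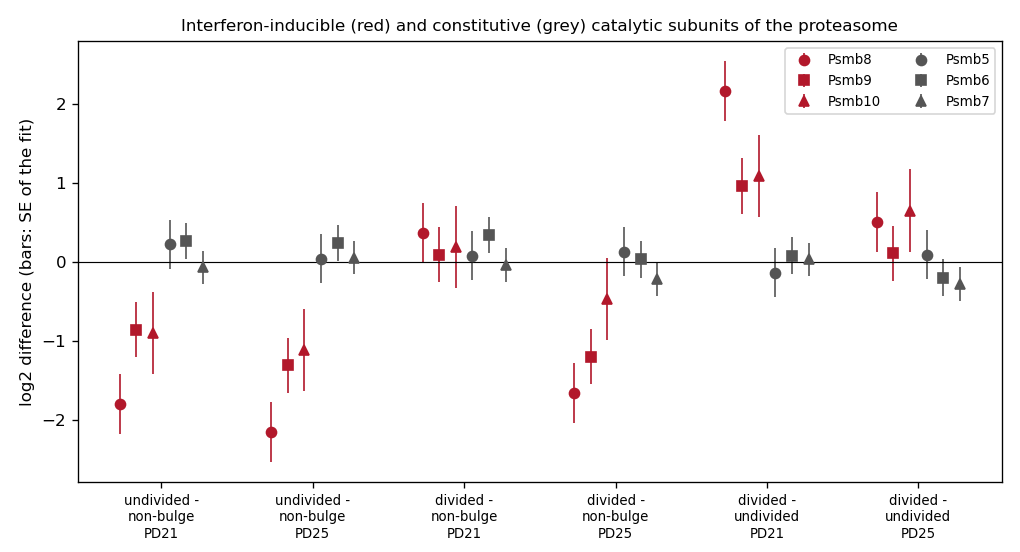
Points give log2 differences with the SE of the fit for the interferon-inducible catalytic subunits (red) and the constitutive ones (grey) in 6 comparisons within an age. Psmb8 lies at -1.80 and -2.16 in undivided against non-bulge cells and at 2.16 in divided against undivided cells of PD21, where Psmb5, Psmb6 and Psmb7 lie between -0.14 and 0.08.

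Tap1, a chain of the peptide transporter, stood at 9.83, 8.92 and 9.46 in non-bulge, 8.23, 8.13 and 9.18 in undivided cells, and 10.30, 9.29 and 9.61 in the divided fraction of PD21. At PD25 it stood at 9.52, 9.58 and 9.44, then 8.95, 8.48 and 8.98, then 8.88, 8.61 and 7.89. Divided cells of PD21 were above undivided cells without overlap, and divided cells of PD25 were below every divided array of PD21. Divided exceeded undivided cells at PD21 by 1.22 ± 0.37 (2.33-fold, limma adjusted p = 0.0416). That call was lost without PD21 undivided mouse 1 or 2, PD21 divided mouse 1 or 3 or PD25 non-bulge mouse 3 (0.93 to 1.55, adjusted p up to 0.227), after quantile normalisation and with the mean of the gene's probe sets. A second Tap1 probe set gave 1.50 in that comparison (limma adjusted p = 0.242). Divided minus non-bulge at PD25 was -1.06 ± 0.37 (limma adjusted p = 0.0853, or 0.0451 with the mouse as a block), where the second probe set had the opposite sign, at 1.16 (limma adjusted p = 0.453). Tap2, the other chain, passed in no comparison and ranged from 5.23 to 8.56.

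Tapbp, which bridges the transporter to class I molecules, read 12.44, 12.76 and 12.02 in non-bulge, 12.29, 12.05 and 12.04 in undivided cells, and 12.50, 12.20 and 11.98 in the divided fraction of PD21. At PD25 it read 12.57, 12.65 and 12.15, then 11.60, 11.57 and 11.68, then 12.02, 11.73 and 11.86, so that the fractions of PD25 did not overlap. Undivided differed from non-bulge cells by -0.84 ± 0.23 at PD25 (1.79-fold lower, limma adjusted p = 0.0154). This was lost without any of non-bulge mice 1 and 2 and undivided mice 1 and 2 (-0.99 to -0.74, adjusted p up to 0.0683), and divided minus non-bulge was -0.58 ± 0.23 (limma adjusted p = 0.131, or 0.0293 with the mouse as a block).

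B2m, the light chain of all class I molecules, differed widely between mice. At PD21 it read 14.93, 15.17 and 13.80 in non-bulge, 14.62, 14.15 and 13.39 in undivided cells, and 15.21, 14.89 and 13.90 in the divided fraction. At PD25 it read 14.98, 14.25 and 13.99, then 13.92, 13.44 and 13.41, then 14.29, 13.79 and 13.38. Within each of the 6 mice the undivided array was below the non-bulge array. Without the mouse in the fit no B2m difference passed: undivided minus non-bulge was -0.58 ± 0.43 at PD21 and -0.81 ± 0.43 at PD25 (limma adjusted p = 0.477 and 0.303). With the mouse as a block the same differences had an SE of 0.13 and limma adjusted p-values of 0.00356 and 0.000121. Divided minus undivided at PD21, 0.61 with an SE of 0.43 or 0.13, had limma adjusted p = 0.481 without and 0.00282 with the block, and divided minus non-bulge at PD25, at -0.59, had 0.564 and 0.00398.

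Of the 18 antiviral effectors and sensors 9 were tested, and Gbp2, an interferon-inducible GTPase with the ISRE letters in its promoter window, was the one that passed. At PD21 it read 6.78, 6.31 and 6.41 in non-bulge, 5.10, 4.68 and 5.74 in undivided cells, and 7.46, 5.71 and 6.12 in the divided fraction. The PD25 arrays gave 6.72, 7.84 and 6.13, then 5.09, 4.10 and 4.44, then 5.67, 4.92 and 5.00. Undivided arrays were the lowest of PD21 except for overlap with divided mouse 2, and the lowest non-bulge array of PD25 was above every bulge array. Gbp2 exceeded the array median on 4 of 18 arrays, so it passed the filter through its high arrays and the low values are near the floor of 4.0 that the added constant sets. Undivided differed from non-bulge cells at PD25 by -2.35 ± 0.59 (limma adjusted p = 0.00887), a call lost without non-bulge mouse 2 or undivided mouse 2 (-2.74 to -1.88, adjusted p up to 0.0689).

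Ifit1, which binds foreign RNA ends and has the ISRE letters in 2 places of its window, was as dim, above the array median on 3 arrays. It read 6.00, 5.14 and 6.16, then 4.19, 4.38 and 4.16, then 4.42, 6.06 and 7.26 at PD21, and 5.58, 7.68 and 5.41, then 5.04, 4.35 and 4.22, then 7.46, 6.23 and 5.45 at PD25, in non-bulge, undivided and divided cells. Undivided arrays were the lowest at both ages without overlap with either other fraction. None of its differences passed, among them 1.67 ± 0.72 at PD21 and 1.85 ± 0.72 at PD25 for divided minus undivided (limma adjusted p = 0.18 and 0.691). Eif2ak2, the RNA-activated kinase PKR, differed by -0.01 ± 0.35 at PD21 and by 1.08 ± 0.35 at PD25 in that comparison (limma adjusted p = 0.577 at PD25). Its probe sets disagreed: another of nearly equal signal gave 0.91 ± 0.29 at PD21 (limma adjusted p = 0.071) and 0.12 ± 0.29 at PD25. Isg20, an RNA exonuclease, was -1.88 ± 0.65 in undivided against non-bulge cells at PD25 (limma adjusted p = 0.0716, or 0.0308 with the mouse as a block). Ifi35 ran the other way at PD21, at 0.69 ± 0.26 in undivided against non-bulge cells (limma adjusted p = 0.101, or 0.039 with the block). The other tested members of this role passed in no comparison: the RNA sensor Ifih1 ranged from 4.61 to 8.51, the tetherin gene Bst2 from 4.42 to 7.07, the dNTP hydrolase Samhd1 from 8.55 to 10.02 and Xaf1 from 6.21 to 8.51. A second, dimmer Xaf1 probe set did pass, lower in undivided than non-bulge cells of PD25 by -3.33 ± 0.88 (limma adjusted p = 0.0157), where the probe set used for the gene gave -0.32 ± 0.58.

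Several classical type I targets were dim throughout. Ifit2, Ifit3, Rsad2, Oasl1, Oasl2, Mx1, Mx2 and Gbp3 did not pass the filter, with signals of 0.5 to 156.0 on any array against array medians of 60.3 to 116.6. Rsad2, Oasl1, Mx1, Mx2 and Gbp3 exceeded the median of no array, and Ifit2, Ifit3 and Oasl2 that of 2 arrays each. Mx1, a dynamin-like antiviral GTPase, had signals of 1.4 to 75.0. A low signal of a probe set is not proof that the gene was off.

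Between the ages, members passed the test in the divided fraction. From PD21 to PD25, 5 of 29 members fell in divided cells and 0 rose, against 3.47% and 4.37% of all tested genes, with a median of -0.66 against -0.00 over all tested genes. Ifngr1 fell by 1.93 ± 0.43 (limma adjusted p = 0.00503), Psmb8 by 1.66 ± 0.38 (0.00723), Irf1 by 1.48 ± 0.34 (0.00753), Tap1 by 1.27 ± 0.37 (0.0342) and Psmb9 by 1.17 ± 0.35 (0.0406). The count was 3 with the mean of each gene's probe sets and 2 without PD21 divided mouse 1. It was 3 without PD21 divided mouse 3 or PD25 divided mouse 2. Each array set left 1 array in 1 of the 2 divided groups, so no calls are counted there. Within set B the differences were -1.74 for Ifngr1, -1.41 for Psmb8, -1.19 for Irf1, -1.36 for Tap1 and -0.77 for Psmb9. The Psmb8 call was lost with the mean of its probe sets (-0.91, limma adjusted p = 0.131), since its second probe set gave -0.17, and the Tap1 call likewise (-1.04, limma adjusted p = 0.2). The Psmb9 call was lost with no filter (limma adjusted p = 0.0543) and without any 1 of the 6 arrays of PD21 divided mice 1 to 3, PD25 undivided mouse 2 and PD25 divided mice 1 and 2 (-1.50 to -0.89). The Tap1 call was lost without PD21 divided mouse 1 or 3 or PD25 divided mouse 2 or 3 (-1.49 to -0.99), and the Irf1 call without PD21 divided mouse 1 (-1.65 to -1.19 over all left-out arrays). In undivided cells 0 members passed between the ages in limma's test, where 0.0951% of all tested genes passed. In non-bulge cells 0 members passed, where 0.0432% of all tested genes did. An unadjusted p under 0.05 was reached by 2 members and 929 of the 11569 tested genes in undivided cells. The same holds for 1 member and 511 tested genes in non-bulge cells. These age comparisons are between different mice. PD21 mice 1 and 2 and PD25 mouse 1 lay in set A and the others in set B, so age is partly confounded with the array set.

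Whether the division difference itself changed with age was tested directly. The difference between the ages of divided minus undivided passed for 0 members in limma's test, where 1.18% of all tested genes passed. Its unadjusted p was under 0.05 for 6 members and for 1478 of the 11569 tested genes. Psmb8 came closest, at -1.67 ± 0.54 (limma adjusted p = 0.13, or 0.0282 with the mouse as a block). With the block 1 of 29 members passed, against 4.37% of all tested genes. Without PD21 undivided mouse 1 the count was 1. For divided minus non-bulge, which was not planned and was chosen with the data in view, 0 members passed, against 1.63% of all tested genes. Its unadjusted p was under 0.05 for 8 members and for 1365 tested genes. Psmb8, Ifngr1 and Irf1 stood at -2.02 ± 0.54, -2.13 ± 0.60 and -1.61 ± 0.49 there, with limma adjusted p = 0.058, 0.0794 and 0.105. With the mouse as a block these 3 passed, at limma adjusted p = 0.00927, 0.0355 and 0.0423, and 3.90% of all tested genes did. Without PD21 undivided mouse 1 the count was 2, and it was 1 without PD21 undivided mouse 2 or 3 or PD25 undivided mouse 1. For undivided minus non-bulge, likewise unplanned, 0 members and 0% of all tested genes passed in limma's test. Its unadjusted p was under 0.05 for 1 member and for 446 tested genes.

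Other genes of the pathway were called in the same comparisons. Of 84 further genes in 4 lists 46 were tested. In undivided against non-bulge cells 5 of the 46 were lower and 1, Ifitm2, higher at PD21 (4.93% and 6.12% of all tested genes), and 7 were lower at PD25 (4.83% of all tested genes). In divided against undivided cells 7 were higher at PD21 (3.91% of all tested genes) and 0 at PD25, and in divided against non-bulge cells 0 passed at PD21 and 4 were lower at PD25 (3.25% of all tested genes). Of 10 tested class I and peptide loading genes, 4 were lower in undivided than non-bulge cells of PD25 and 3 higher in divided than undivided cells of PD21. Nlrc5, the transactivator of MHC class I genes, read 10.58, 9.90 and 11.02 in non-bulge, 9.01, 9.25 and 8.62 in undivided cells, and 11.09, 10.32 and 10.87 in the divided fraction of PD21. It differed between undivided and non-bulge cells of PD25 by -2.44 ± 0.35 (limma adjusted p = 2.27e-05), and divided cells exceeded undivided ones at PD21 by 1.80 ± 0.35 (limma adjusted p = 0.00118). The non-classical class I gene H2-M3 differed by -3.13 ± 0.55 and 2.35 ± 0.55 in these comparisons, and both passed. H2-D1, a classical heavy chain, was at -1.47 ± 0.31 (limma adjusted p = 0.00189) and the peptide trimming enzyme Erap1 at -1.82 ± 0.48 (limma adjusted p = 0.0126) in undivided against non-bulge cells of PD25. H2-K1, the other classical chain, did not pass there (-1.27 ± 0.48, limma adjusted p = 0.109).

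Among the induced effectors, Ly6e differed between undivided and non-bulge cells of PD25 by -3.34 ± 0.45 (limma adjusted p = 9.28e-06) and between divided and undivided cells of PD21 by 2.73 ± 0.45 (limma adjusted p = 0.000245). The membrane protein Ifitm3 differed by -1.32 ± 0.27 and 1.47 ± 0.27, and the chemokine Cxcl10 by -2.67 ± 0.64 in undivided against non-bulge cells of PD25, all of which passed. Phf11d was higher in divided than undivided cells of PD21, at 2.10 ± 0.62 (limma adjusted p = 0.036). The DNA sensor Cgas was lower in undivided than non-bulge cells of PD21, at -1.87 ± 0.46 (limma adjusted p = 0.00699), and higher in divided than undivided cells, at 1.72 ± 0.46 (limma adjusted p = 0.0175). None of the 9 tested signalling genes passed, with Jak1 at -0.81 ± 0.27 in undivided against non-bulge cells of PD25 (limma adjusted p = 0.0565) and Jak2 at -0.75 ± 0.26 in divided against undivided cells of PD21 (limma adjusted p = 0.0818). Of the MHC class II list 4 of 7 genes were tested and 0 passed.

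Markers of position also differed between the bulge fractions at PD21. Bulge markers ran opposite to the median of the members, and markers of cells outside the bulge ran in its direction. Divided minus undivided was -2.16 ± 0.25 for Lhx2, -2.17 ± 0.27 for Sox9 and -3.80 ± 0.46 for Cd34, on which the cells were sorted, and all 3 passed. Ly6d and Gata3, which mark epidermis and upper follicle outside the bulge, were 2.04 ± 0.28 and 1.37 ± 0.30 higher in that comparison, and lower in undivided than non-bulge cells of PD21, at -1.95 ± 0.28 and -1.54 ± 0.30. At PD25, Lhx2 in divided cells exceeded non-bulge cells by 4.51 ± 0.25, against 4.19 ± 0.25 in undivided cells, and Ly6d and Gata3 were lower in divided than non-bulge cells, at -2.37 ± 0.28 and -1.37 ± 0.30. Over the 7 tested genes of the list for outside the bulge, divided minus undivided at PD21 was 0.31 to 2.04 (median 0.88, 2 passed). Undivided minus non-bulge at PD21 was -1.95 to -0.13 (median -0.64, 2 passed). Divided minus non-bulge at PD25 was -2.37 to 0.29 (median -0.53, 2 passed), with Lrig1 averaging higher in divided cells (12.36 against 12.07). The summed signal of the 7 measured genes of the list for outside the bulge was 55532 to 96452 in non-bulge, 37146 to 73777 in undivided and 55830 to 116766 in divided cells of PD21, and 62847 to 106390, 33208 to 40365 and 41878 to 69202 at PD25. The part of these position markers in the member results was not tested. Of 9 proliferation genes, among them Mki67 and Top2a, 8 were tested. Divided minus undivided was 0.16 to 1.59 at PD21, where 2 passed, and -1.0 to -0.23 at PD25, where 0 passed. The names undivided and divided follow the retained label and not these genes, whose part in the member results was not tested.

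Leukocyte genes were measured as well, because immune cells express many members. The 10 measured genes of the T cell and leukocyte list summed to 5482 to 7155 in non-bulge, 3794 to 5424 in undivided and 4209 to 7074 in divided cells of PD21, and to 4727 to 5330, 2682 to 3160 and 2862 to 4419 at PD25. Thy1 and Cd247 were the brightest of them, so the sums mainly follow these genes. Undivided minus non-bulge had a median of 0.17 at PD21 (-1.53 to 0.56) and -0.05 at PD25 over the 6 tested genes. At PD21 Cd3e, Cd3g, Cd3d and Laptm5 averaged higher in undivided than non-bulge cells, and the other measured genes of the list lower. Of its 6 tested genes only Thy1 passed in the comparisons within an age, lower in both bulge fractions than in non-bulge cells of PD25, at -1.51 ± 0.34 in undivided and -1.47 ± 0.34 in divided cells. Thy1 averaged 11.53 in divided cells of PD21 and 10.08 in those of PD25, and Cd247, a chain of the T cell receptor complex, exceeded the array median on 18 arrays, as Laptm5 did on 17. Cd3e, Cd3g and Coro1a did so on 6 arrays each, and Ptprc, the pan-leukocyte marker, Cd3d, Cd2 and Cd52 on 1 array each. The 10 genes of the Langerhans cell and myeloid list summed to 337 to 1269 in non-bulge, 326 to 397 in undivided and 294 to 472 in divided cells of PD21. At PD25 the same sums were 208 to 350, 210 to 579 and 319 to 457. Fcer1g, Aif1, Cd86 and Mpeg1 were above the median of no array. Non-bulge mouse 1 of PD21 had the highest of the 18 values of Ptprc (7.78), Cd3e (8.34), Laptm5 (10.18), Coro1a (7.84), Csf1r (8.55), Tyrobp (8.41) and Ctss (8.53). For the other measured genes of both lists another array was highest. The part of leukocyte RNA in the member results was not tested. Lists of other cell types were measured too: the dermal fibroblast list summed to 174 to 546 in non-bulge and 674 to 2660 in bulge cells. Its genes Pdgfra and Lum exceeded the array median on no array and Dcn on 1, against 14, 8 and 9 for Col1a1, Col1a2 and Col3a1. Of its 3 tested genes, Col1a1 was higher in undivided than non-bulge cells of PD21 by 4.09 ± 0.55, while Col1a2 and Col3a1 stood at -0.91 ± 0.68 and -0.38 ± 0.65 and did not pass. In divided against undivided cells of PD21 Col3a1 was higher by 2.77 ± 0.65. Of the 3 tested melanocyte genes, Mitf was -2.08 ± 0.47 in that comparison, and Dct and Pmel, at -0.34 ± 0.58 and 0.13 ± 0.63, did not pass. Of the other melanocyte genes Tyr and Mlana exceeded the array median on no array and Tyrp1 on 1, against 18, 8 and 13 for Mitf, Dct and Pmel. Whether these sums and differences reflect other cell types, and their part in the member results, was not tested. The ratio of 3' to 5' Gapdh probe sets, a measure of RNA integrity, overlapped between all groups, at 3.10 to 11.6.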

How the data were processed

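Gene expression of sorted skin cells was measured on 18 Affymetrix mouse expression arrays from 5 ng of amplified RNA each. The authors deposited linear probe set intensity signals, made with GCOS per the submitters' processing notes (version not given in the sources used here). Their 2% trimmed mean was 500 on every array, so no further normalisation was applied. Of 45101 probe sets 34945 had 1 gene symbol, 932 several and 9160 none. Signals were tested as log2(signal + 16), which understates changes of dim genes. Each gene was represented by its probe set of highest mean signal. Limma 3.58.1 in R 4.3.3 (lmFit, eBayes with a trend) fitted 6 group means, with 12 residual and 11.2 prior degrees of freedom, and was tested on simulated data first. P-values were adjusted by Benjamini and Hochberg's method over the 11569 genes of a comparison. The number of mice limits the precision.

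Same-numbered arrays of an age come from 1 mouse, per the titles, and their deviations from the group means correlated at 0.075 to 0.462 (median 0.198, 18 pairs). The mouse was a block in an alternative fit, as a fixed term within an age and as a random term (correlation 0.231) across ages. Other alternatives were a constant of 64, no filter, quantile normalisation, the mean of a gene's probe sets and leaving out each array. Fits within each array set were chosen after seeing the data.

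The members and lists were chosen with earlier results of these data known. Every member that passed in any comparison, or stood in a fixed list of key genes (Isg15, Irf7, Irf9, Stat2, Psmb8, Psmb9, Tap1, B2m, Ifnar1, Ifngr1, Ifit1 and Mx1), is given by array where it was tested, and up to 4 genes are named per further list by smallest adjusted p. H2-K1, Ifitm2 and the other members named with their values were picked after these were seen.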

Additional observations from a re-analysis of the deposited data

How the results depend on the processing

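No called member changed direction under any alternative run. With the mouse as a replicate block, members called rose to 8 of 29 in divided against non-bulge cells of PD25, to 1 for the difference between the ages of divided minus undivided and to 3 for that of divided minus non-bulge, which had 1 with a constant of 64 and 1 after quantile normalisation. The block changed other calls only as given beside them. The mean of a gene's probe sets left 3 called between the ages in divided cells. At PD21 array set A alone gave 5 lower in undivided than non-bulge cells (3.77% of all tested genes). It gave 3 higher in divided than undivided cells (3.16%). At PD25 array set B alone gave 7 lower in undivided and 4 lower in divided than in non-bulge cells (3.39% and 2.05%). Each set leaves 1 or 2 mice per group, and a lone array is assumed to vary like the others. No counts are given where a compared group holds 1 array. Leaving out single arrays gave ranges of 3 to 7 and 5 to 9 (undivided against non-bulge, PD21 and PD25), 3 to 5 (divided against non-bulge, PD25), 3 to 9 (divided against undivided, PD21) and 2 to 5 (between ages, divided). For the age differences of divided minus undivided and divided minus non-bulge these ranges were 0 to 1 and 0 to 2, and the other counts stayed at 0. Of 576 single calls refitted without 1 array 56 no longer passed, and of 224 under the other settings 51. With no filter Ifit2 also passed, higher in divided than non-bulge cells of PD25, while calls of Usp18 and Psmb9 were lost as given beside them. Dim members such as Usp18, Gbp2 and Ifit1 are the least certain.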
